A study of Mus musculus with 12 samples.

Results

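Histone H3 acetylated at lysine 9 (H3K9ac) was mapped in adult mouse liver with ChIP-seq, which sequences the DNA pulled down by an antibody, and the regions described here were acetylated in C57BL/6J (B6) livers, had no peak in MSM/Ms (MSM) livers, and lay away from gene starts. Overlapping peaks of the 4 parental lists were merged into 25808 regions, of which 13023 did not overlap the window of 1000 bp on either side of a protein-coding gene start (GENCODE M21, mm10) and are called distal below. A distal region was taken as B6-specific when it held a peak in both B6 lists and in neither MSM list. In all, 509 regions met this rule, 3.91% of the distal regions. The count depends on the lists, as it was 4754 without B6 replicate 2 and 171 when every list was limited to the same covered length. A further 340 B6-specific regions were at gene starts and were set aside, so that 849 regions of the genome were B6-specific in all. Because the rule used the peaks of all 4 parental libraries, the count and the parental values are descriptions, and no test was made of them.

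The series holds 6 H3K9ac libraries from liver and 6 inputs, and only the H3K9ac peak lists were analysed here. The parental groups were B6, the strain of the reference genome, and MSM, an inbred strain of wild Japanese origin, with 2 libraries each, made from separate mice. The F1 hybrids were represented by 1 library of each reciprocal cross, F1 BM from a B6 mother and an MSM father and F1 MB from an MSM mother and a B6 father. All animals were adult, no treatment is given in the labels, and every library was made with the same antibody. The lists differed in length, with 22968 peaks for B6 replicate 1 but 11619 for B6 replicate 2. Those of MSM replicates 1 and 2 held 17310 and 17584 peaks, that of F1 BM 20173 and that of F1 MB 13235. Of 12 hepatocyte markers, 11 had a peak at the start in all 6 libraries and Hnf4a had none at the start used. Of 31 markers of other liver cells, 7 had a start peak in each of B6 replicate 1 and F1 BM, 0 in B6 replicate 2 and F1 MB, and 2 and 5 in the MSM libraries. The Xist start was acetylated in all 6 libraries, and none had a peak at the start of the Y-linked Kdm5d, Eif2s3y, Uty or Ddx3y. Elsewhere on chromosome Y the B6 lists had 0 peaks, those of MSM replicates 1 and 2 had 8 and 4, that of F1 BM 9 and that of F1 MB 1, and 0 of the 509 regions lay there.

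H3K9ac is laid down by acetyltransferases such as GCN5 and PCAF and removed by histone deacetylases. It marks the starts of active genes and also active enhancers, the regulatory stretches that lie in introns or between genes and act on promoters at a distance. In hepatocytes such elements are known to be bound by factors including HNF4A, FOXA, C/EBP and HNF1. A peak here is a stretch in which the ChIP signal exceeded the local background, and its fold enrichment is the ratio of signal to that background at the summit.

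The 6 sequences below show what the strongest of these regions look like, since they carry the largest B6 enrichment with no MSM peak. Regions were ranked by the lower of their highest fold in the 2 B6 lists, and each sequence is 300 bp of the GRCm38 reference (RefSeq), forward strand, around the summit of the B6 replicate 2 peak. Capitals mark the matches to 14 short motifs that are spelled out with the sequence features.
Near BC107364, chr3:96486269-96486568: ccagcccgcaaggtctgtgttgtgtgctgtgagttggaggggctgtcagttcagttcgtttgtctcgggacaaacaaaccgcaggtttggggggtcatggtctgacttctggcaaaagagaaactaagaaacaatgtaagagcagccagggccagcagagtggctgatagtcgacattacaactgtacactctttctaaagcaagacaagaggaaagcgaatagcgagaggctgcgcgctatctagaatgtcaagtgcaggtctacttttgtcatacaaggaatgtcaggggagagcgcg
Near Tsga10ip, chr19:5406951-5407250: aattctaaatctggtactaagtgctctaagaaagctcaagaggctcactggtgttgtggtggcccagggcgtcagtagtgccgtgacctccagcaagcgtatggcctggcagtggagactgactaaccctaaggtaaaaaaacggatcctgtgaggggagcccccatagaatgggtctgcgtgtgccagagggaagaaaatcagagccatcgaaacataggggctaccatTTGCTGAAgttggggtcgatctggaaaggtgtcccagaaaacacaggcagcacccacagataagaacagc
Near Camk2d, chr3:127005516-127005815: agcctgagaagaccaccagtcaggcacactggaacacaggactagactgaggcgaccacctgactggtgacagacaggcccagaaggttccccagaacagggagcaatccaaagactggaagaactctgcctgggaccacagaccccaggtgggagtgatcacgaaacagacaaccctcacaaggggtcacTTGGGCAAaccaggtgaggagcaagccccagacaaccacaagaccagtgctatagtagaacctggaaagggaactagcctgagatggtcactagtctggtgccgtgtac
In Scarb1, chr5:125306194-125306493: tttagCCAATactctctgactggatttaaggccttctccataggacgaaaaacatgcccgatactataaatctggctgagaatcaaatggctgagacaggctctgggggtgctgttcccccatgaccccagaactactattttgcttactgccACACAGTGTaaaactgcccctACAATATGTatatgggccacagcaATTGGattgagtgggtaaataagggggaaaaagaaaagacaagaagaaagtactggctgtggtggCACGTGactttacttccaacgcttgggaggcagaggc
In Bcor, chrX:12091936-12092235: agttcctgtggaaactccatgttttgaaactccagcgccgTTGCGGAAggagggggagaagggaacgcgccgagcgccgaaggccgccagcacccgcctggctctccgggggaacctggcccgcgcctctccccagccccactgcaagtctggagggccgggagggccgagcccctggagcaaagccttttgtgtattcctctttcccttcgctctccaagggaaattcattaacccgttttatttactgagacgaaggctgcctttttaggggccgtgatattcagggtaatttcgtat
In Nlrp12, chr7:3227941-3228240: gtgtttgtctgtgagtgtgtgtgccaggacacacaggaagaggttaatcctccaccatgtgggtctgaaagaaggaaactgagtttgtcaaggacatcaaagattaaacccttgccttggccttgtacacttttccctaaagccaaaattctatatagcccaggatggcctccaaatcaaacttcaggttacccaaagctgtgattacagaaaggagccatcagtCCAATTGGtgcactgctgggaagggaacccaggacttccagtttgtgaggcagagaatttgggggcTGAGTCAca

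In the genome, these regions were spread over chromosomes 1 to 19 and X. They lay mostly inside genes, like distal regions in general, and well away from the nearest protein-coding start. The median distance to a protein-coding start was 19167 bp (interquartile range, IQR, 6479-48529 bp; lowest 1074 bp, highest 1092475 bp), against a median of 17173 bp over all distal regions. Within 5 kb of a start lay 102 regions (20.04%, against 23.2% of all distal regions), and 125 (24.6%, against 24.6%) lay more than 50 kb away. The nearest start was upstream of 315 regions (61.9%, against 63.1%), which therefore lay on the side of the transcribed gene. On these measures the B6-specific regions were placed much as distal regions were in general.

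By the annotation at the B6 replicate 2 summit, 245 regions (48.1%) were in an intron of a protein-coding gene and 154 (30.3%) outside annotated genes. Another 49 were in an intron of a non-coding gene, 29 in a non-coding exon, 14 in a coding exon, 10 in a 5′ UTR and 8 in a 3′ UTR. At the highest summit of each region, 48.3% were in an intron of a protein-coding gene and 29.9% outside annotated genes, against 51.3% and 28.2% of all distal regions. A start of another protein-coding transcript lay within 1000 bp of 64 regions (12.6%, against 15.8% of all distal regions), and a start of a non-coding gene or pseudogene lay that close to 63 (12.4%, against 9.83%). The regions away from the main start of a gene thus include some at other starts.

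The median width was 589 bp (IQR 429-847 bp; lowest 250 bp, highest 4628 bp), between the 422 bp of all distal regions and the 980 bp of the 2267 distal regions with a peak in all 4 parental libraries. The widest region, 4628 bp at chr11:6006064-6010691, was in an intron of Camk2b, a calcium/calmodulin-dependent protein kinase gene, 50371 bp from the start of Ykt6, which encodes a SNARE of vesicle fusion. The next widest were 3062 bp in an intron of Camk1d, 2494 bp in Shb, 2261 bp upstream of Dnaja2 and 2177 bp upstream of H1f0. The region farthest from a protein-coding start lay 1092475 bp from Dmac1, in an intron of Ptprd, a receptor tyrosine phosphatase gene. A pair of neighbouring regions 584796 and 584073 bp from Pdcd6ip, 1 region 517903 bp from Fzd8 and 1 region 469528 bp from the Sox5 start followed. A start of a non-coding gene or pseudogene lay within 1000 bp of the Pdcd6ip pair (Gm36251) and of the Fzd8 region (Gm5819).

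The share of distal regions that were B6-specific was highest on chromosome 15 (36 of 617, 5.83%), chromosome 18 (24 of 415, 5.78%) and chromosome 3 (33 of 598, 5.52%). It was lowest among the autosomes on chromosome 1, with 22 of 818 (2.69%). Chromosome X held 10 regions of 221 (4.52%) and chromosome Y held 0 of 8. Most regions stood alone: 417 had no other B6-specific distal region within 10 kb, and 92 (18.1%) lay in runs of 2 or more.

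In B6 livers the enrichment was moderate and was higher in the longer of the B6 lists. The median of the highest fold per region was 5.16 in B6 replicate 1 (lowest 2.19, highest 15.4) and 3.94 in B6 replicate 2 (lowest 2.24, highest 10.1), against 4.41 and 4.29 over the distal regions with a peak in each library. The fold was higher in replicate 1 for 403 regions (79.2%). Across the 509 regions, Spearman's rho between the 2 B6 folds was 0.38; the regions share libraries and are not independent, so no p is given. The median -log10 q of the strongest peak was 13.5 in replicate 1 and 5.69 in replicate 2.

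**Figure D1:**
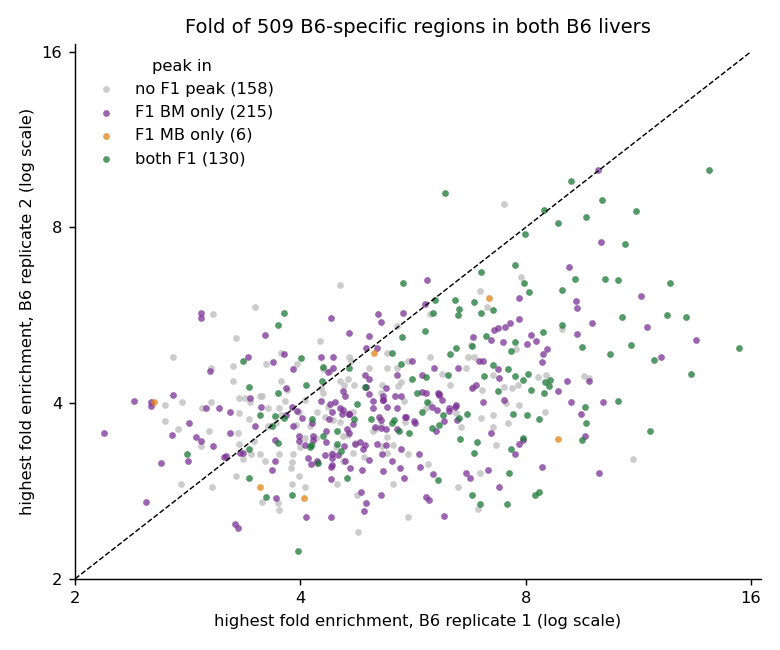
Highest fold enrichment of a peak in each of the 509 regions in B6 replicate 1 (horizontal, log scale) and B6 replicate 2 (vertical, log scale); each point is a region, coloured by the F1 libraries with a peak there, and the dashed line marks equal fold. Most points (403) lie below the line, and regions with a peak in both F1 libraries (130) are more frequent toward the upper right.

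At the edges of the rule, the region closest to a start was 1074 bp from Prpf4b, and the B6-specific region left out with the largest distance was 927 bp from Slc43a3. The weakest strongest peaks had -log10 q of 1.99 in B6 replicate 1 and 1.43 in replicate 2. Just outside the rule were 395 distal regions with both B6 peaks and a peak in 1 of the MSM libraries, whose MSM peak had a median -log10 q of 6.26 (lowest 1.79), and 4227 with a peak in B6 replicate 1 alone.

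Absence of a peak in MSM did not always mean distance from one. The median gap to the nearest MSM peak was 5612 bp (IQR 499-31262 bp). An MSM peak lay within 100 bp of 9 regions, within 500 bp of 128 (25.1%) and within 1000 bp of 164 (32.2%), leaving 345 farther away. The 761 distal regions with the opposite pattern, peaks in both MSM lists and neither B6 list, had a median gap of 5036 bp to the nearest B6 peak (757 regions on chromosomes with a B6 peak), with 33.7% within 1000 bp.

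The 25 highest-ranked regions had folds of 6.23 to 14.1 in B6 replicate 1 and 6.21 to 10.1 in B6 replicate 2, and 22 of them had a peak in F1 BM and 19 in F1 MB, where 67.8% and 26.7% of all B6-specific regions and 58.4% and 30.1% of all distal regions had one. The 25 were picked for their B6 fold. An MSM peak lay within 1000 bp of 3 of the 25, and 7 were more than 50 kb from any. The first in rank, chr3:96486193-96487325, was 33887 bp upstream of BC107364, with folds of 14.1 and 10.04 in the B6 libraries, 7.57 in F1 BM and 6.14 in F1 MB. It began a run of 4 B6-specific regions over 14065 bp (chr3:96486193-96500257), between BC107364 and Hfe2, the gene of the iron regulator hemojuvelin. In that stretch B6 replicates 1 and 2 had 6 and 4 peaks, F1 BM had 5, F1 MB had 3 and both MSM libraries had 0. Around the summits of the BC107364 regions of this run, however, 0% and 17.9% of the 50-base words occur once in the genome. The place of their peaks is therefore uncertain. Starts of the non-coding genes or pseudogenes Gm25890 and Gm22614 lay within 1000 bp of these regions.

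The second in rank, chr19:5406745-5407764, was 4219 bp upstream of Tsga10ip, which encodes a partner of a testis protein, in an intron of the non-coding 4930481A15Rik. Its folds were 9.99 and 10.1 in the B6 libraries and 6.60 in F1 BM, with no peak in F1 MB. A neighbour 3632 bp from the same start, sixteenth by rank, had 7.89 and 6.57 in B6 and a peak in neither F1 library. The start of 4930481A15Rik lay within 1000 bp of each of these regions. The start of Tsga10ip itself had no peak in any of the 6 libraries.

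The third in rank lay in an intron of Ank2, the gene of an ankyrin that anchors membrane proteins. The nearest protein-coding start, that of the kinase gene Camk2d, was 409137 bp away, and the nearest MSM peak 311817 bp away. This region also had the start of Gm25501, a non-coding gene or pseudogene, within 1000 bp. Its folds were 9.21 and 9.61 in B6, 7.91 in F1 BM and 7.31 in F1 MB, which was the highest F1 MB fold but 1 among the 25. A region with a similar profile had its summit outside annotated genes, 584796 bp from Pdcd6ip, which encodes an adaptor of the ESCRT membrane-scission machinery. The start of Gm36251, a non-coding gene or pseudogene, lay within 1000 bp of this region. The region had folds of 9.64 and 8.33 in B6, 7.13 in F1 BM and 6.98 in F1 MB, with no MSM peak within 584073 bp. Its neighbour 584073 bp from Pdcd6ip had the same F1 BM fold of 7.13.

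The fourth in rank was inside Scarb1, which encodes the hepatocyte receptor for high-density lipoprotein that takes up cholesteryl esters. It covered 1603 bp (chr5:125305836-125307438), 33656 bp downstream of the Scarb1 start, and that start had a peak in all 6 libraries. Folds in this intron were 10.1 and 8.92 in B6, 4.89 in F1 BM against 5.77 in F1 MB. Peak presence thus differed between the strains in this intron, as the rule requires, and not at the Scarb1 start.

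Bcor, the gene of a corepressor that binds BCL6, had an intronic region 68007 bp from its start with folds of 11.2 and 8.54 in B6, 4.05 in F1 BM and 3.69 in F1 MB. Nlrp12, which encodes a NOD-like receptor of immune cells, had an intronic region with 8.48 and 8.57 in B6, 4.12 in F1 BM and 6.19 in F1 MB. Only B6 replicate 1 had a peak at the start of either gene. In both introns the B6 folds exceeded the fold in each hybrid.

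The other named regions among the 25 were next to Trim8, Zfp825, Itga7, Cep85, Camk1d, Coq8a, Klhl2, Gm33543, Atg101, Hnrnpa3, Tmem220, Ston2, Wfdc21, Gstp3, Pls3, BC107364 again and Caprin1. The Trim8 region was in an intron of Sufu, a negative regulator of Hedgehog signalling, and had 8.83 and 8.15 in B6 but 2.57 in F1 BM and 3.92 in F1 MB. That of Ston2, an endocytic adaptor gene, differed most between the B6 libraries, with 12.5 and 6.43, and had 5.25 in F1 BM and 7.65 in F1 MB. That of Cep85, a centrosomal protein gene, had 7.49 and 8.77 in B6 and a peak in neither F1 library, but only 19.9% of the 50-base words around its summit occur once in the genome. The region of Pls3, which encodes an actin-bundling plastin, likewise had 6.96 and 6.23 in B6 and no F1 peak. These and the second Tsga10ip region were the 3 of the 25 without an F1 peak. Regions of Itga7 and Klhl2, as well as the first of Tsga10ip, had a peak in F1 BM only.

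**Figure D2:**
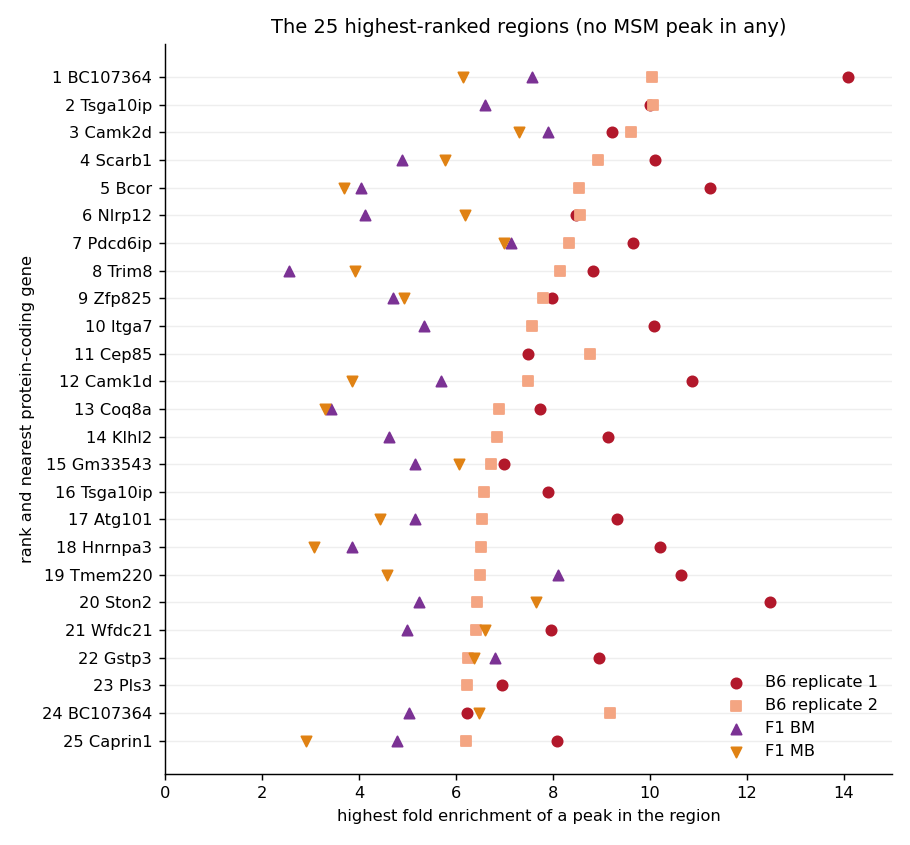
Highest fold enrichment (horizontal) of the 25 highest-ranked regions, one row each with its rank and nearest protein-coding gene, in B6 replicate 1 (circles), B6 replicate 2 (squares), F1 BM (upward triangles) and F1 MB (downward triangles); a missing symbol means no peak. The F1 symbols lie to the left of both B6 symbols in most rows, and rows 11, 16 and 23 have none.

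The 509 regions had 445 different nearest protein-coding genes. For 393 genes there was 1 region, for 42 there were 2, and 10 genes were nearest to 3 or more, 32 regions in all (6.29%). Eif1a, a translation initiation factor gene on chromosome 18, and Ly6l, of the Ly6 surface protein family, had 4 each. Those with 3 each included Bcor, Cyp2b9, Dbx1, Eva1a, Gstp3, Pls3 and Zfp825. The Ly6l regions spread over 34525 bp (chr15:75396418-75430942), with folds of 4.78 to 10.8 in B6 replicate 1 and 2.41 to 5.61 in replicate 2. Among the 9 distal regions nearest to Ly6l, 0 had a peak in all 4 parental libraries, and its start had no peak in any library.

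At Gstp3, a pi-class glutathione S-transferase gene, 3 regions lay within 6883 bp (chr19:4063477-4070359), 3908 to 10446 bp from the start. All 3 had a peak in F1 BM and 2 had one in F1 MB. Of all B6-specific regions 67.8% and 26.7% had one, and of all distal regions 58.4% and 30.1%. The Gstp3 start had a peak in B6 replicate 1 alone. The 4 Eif1a regions, 17344 to 46992 bp downstream of an acetylated start, all had a peak in F1 BM and 1 had one in F1 MB, to be read against the same shares.

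The nearest gene's own start was acetylated in all 4 parental libraries for 253 regions (49.7%; Wilson 95% interval 45.4-54.0%), against 53.4% over all distal regions, and in neither strain for 147 (28.9%, against 27.7%). It had a peak in both B6 libraries and neither MSM library for 16 (3.14%; 1.94-5.04%), against 1.41% of all distal regions. The nearest start therefore seldom had the same pattern as the region, although the share was above that of all distal regions. The starts were read from the same 4 lists as the rule, and some genes count more than once. The 16 regions were nearest to 13 genes, which were picked out after their values were seen: Wfdc21, Cyp2b9 (3 regions), H2-K1, Asap1, Cyp2b13, Edc3, Plcl2, Arap1, Scd1, Ldah, Mn1, Evi5 and Cyp17a1 (2 regions).

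Among these, the region 1276 bp from the start of Wfdc21, of the whey acidic protein family, had folds of 7.95 and 6.42 in B6, 4.99 in F1 BM and 6.60 in F1 MB. A region 19301 bp downstream of the start of Scd1, the stearoyl-CoA desaturase of fatty acid synthesis, had 9.64 and 3.70 in B6, 5.18 in F1 BM and 4.31 in F1 MB, with the nearest MSM peak 156606 bp away. At Cyp17a1, which encodes a steroid hydroxylase, the regions 3705 and 2432 bp from the start had 6.95 and 2.19 in B6 replicate 1 and 2.68 and 3.55 in replicate 2. F1 BM had a peak in both Cyp17a1 regions (5.74 and 4.06), and F1 MB in the first (3.73). The region nearest to H2-K1, a class I MHC gene, was 21594 bp downstream of its start, in a non-coding exon of H2-K2. The H2-K2 start lay within 1000 bp. The region had 6.81 and 4.26 in B6 and no F1 peak, although both F1 libraries had a peak at the H2-K1 start.

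Genes were also grouped by lists of liver functions, and a list is described by the share of the distal regions nearest to its genes that were B6-specific, against 3.91% of all distal regions. For xenobiotic metabolism the count was 8 of 190 (4.21%), for lipid and fatty acid metabolism 6 of 156 (3.85%) and for plasma and acute phase proteins 5 of 130 (3.85%). It was 3 of 112 (2.68%) for cholesterol and bile acids, 4 of 187 (2.14%) for hepatocyte transcription factors and nuclear receptors and 4 of 209 (1.91%) for glucose and amino acid metabolism. For the circadian clock it was 1 of 54 (1.85%), for immediate early and stress genes 2 of 110 (1.82%) and for markers of other liver cells 0 of 12. For 12 hepatocyte markers it was 4 of 85 (4.71%), at Alb, Ahsg and Apob, which other lists also hold. By gene, in place of by region, 25% of the hepatocyte markers and 0% of the markers of other liver cells were nearest to a B6-specific region, against 2.03% of all protein-coding genes. For the other 8 lists this share ran from 5% for clock genes to 11.4% for transcription factors. Distal regions of any kind were nearest to 11 of the 12 hepatocyte markers but to 8 of the 31 markers of other liver cells. MSM-specific regions were nearest to 3 of the 12 hepatocyte markers and 7 of the 35 transcription factors, where B6-specific regions were nearest to 3 and 4, and nothing particular to B6-specific regions is read from the shares by gene. The lists were chosen with earlier results of these data known.

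In the xenobiotic list, 4 of the 8 regions were nearest to the cytochrome P450 genes Cyp2b13 and Cyp2b9, whose products oxidize drugs and steroids. The Cyp2b13 region was 40716 bp upstream, in an intron of the pseudogene Cyp2b27-ps. The Cyp2b9 regions 32716 and 33923 bp upstream were in an intron of the pseudogene Cyp2b26-ps. Over 120487 bp (chr7:26020209-26140695) B6 replicates 1 and 2 had 6 peaks each, MSM had 0 in both libraries, F1 BM had 3 and F1 MB had 1, and these 4 regions were more than 100 kb from any MSM peak. In 3 of the 4, however, fewer than 50% of the 50-base words around the B6 summit occur once in the genome, with 27.5% at Cyp2b13 and 7.97% and 0% at Cyp2b9, so the place of these peaks is uncertain. The strongest, 52698 bp upstream of Cyp2b9 and with 80.9% of its words unique, had folds of 8.61 and 4.39 in B6, 2.70 in F1 BM, and 3.64 was its fold in F1 MB. The other 4 were nearest to Ces2e, a carboxylesterase gene (5.45 and 4.34 in B6, no F1 peak), Ugt2a3, a glucuronosyltransferase gene (7.47 and 4.04, and 4.64 in F1 BM), Gsta3 and Cyp2a4. The Ces2e region was 39069 bp upstream, in an intron of the non-coding Gm8798, whose start lay within 1000 bp. Of the words of the Ces2e and Gsta3 regions, 0% and 31.5% were unique, so their place is uncertain too. The Cyp2a4 region was 499 bp from an MSM peak, unlike those of Cyp2b.

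The lipid regions included those at Apob, Ppargc1a, Scd1, Plin2 and Cidec. Apob, which encodes the protein core of very-low-density lipoprotein, had a region 39301 bp upstream with 7.23 and 4.47 in B6 and no F1 peak. Ppargc1a, the gene of a coactivator of mitochondrial and fasting genes, had one 300780 bp upstream with 4.29 and 4.16 in B6 and no F1 peak. Those of Plin2 and Cidec, both genes of lipid droplet proteins, were 345 and 93 bp from an MSM peak. Of the 6 regions of this list, 1 had a peak in an F1 library, at Scd1, while 31.0% of all B6-specific regions and 39.9% of all distal regions had a peak in neither.

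The 3 cholesterol and bile acid regions were at Scarb1, Fdft1 and Acnat1. Fdft1, which encodes squalene synthase, had a region 14580 bp from its start with 9.38 and 5.81 in B6, 3.14 in F1 BM and no peak in F1 MB. Acnat1, which encodes an acyltransferase that conjugates fatty acids to taurine, had 3.80 and 4.85 in B6 and 3.63 in F1 BM. All 3 had a peak in F1 BM, against 67.8% of all B6-specific regions and 58.4% of all distal regions.

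The transcription factor regions were at Onecut2, Bcl6, Prox1 and Foxa3, and all 4 had a peak in F1 BM. So did 67.8% of all B6-specific regions and 58.4% of all distal regions. Bcl6, which encodes a repressor of lipid genes in liver, had a region 99850 bp upstream with 6.47 and 4.97 in B6, 6.28 in F1 BM and 5.67 in F1 MB. Prox1, the gene of a homeobox factor of hepatocytes, had one 110886 bp away with 10.4 and 4.85 in B6, 3.10 in F1 BM and 4.56 in F1 MB. Foxa3, a hepatocyte forkhead factor gene, had one 7429 bp downstream of its start with 5.81 and 3.86 in B6, 4.63 in F1 BM and 3.21 in F1 MB. Those of Bcl6 and Foxa3 were 364 and 257 bp from an MSM peak, and that of Prox1 was 46640 bp away.

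Among plasma protein genes, Ahsg (fetuin-A) had 2 regions, and Alb (albumin), F11 and F5 (coagulation factors) had 1 each. All 5 had a peak in F1 BM, against 67.8% of all B6-specific regions and 58.4% of all distal regions. The Alb region, 10257 bp upstream, had 4.56 and 3.89 in B6 and 4.12 in F1 BM, and lay 286 bp from an MSM peak. Both Ahsg regions were within 1000 bp of an MSM peak (574 and 414 bp), as was that of F11 (788 bp), whereas that of F5 was 3253 bp away.

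The glucose and amino acid regions were at Irs2, Hpd, Oat and Got1. Irs2, the gene of an insulin receptor substrate, had one 153086 bp from its start with 7.48 and 4.26 in B6 and no F1 peak, 240 bp from an MSM peak. Hpd, which encodes an enzyme of tyrosine breakdown, had one with 6.21 and 3.82 in B6, 2.44 in F1 BM and 3.37 in F1 MB. Those of the aminotransferase genes Oat and Got1 had a peak in F1 BM (4.44 and 3.72) and none in F1 MB. The clock region was at Cry1, a circadian repressor gene, 1107 bp from its start, with 2.83 and 3.19 in B6 and 2.87 in F1 BM. The stress regions were at Dusp1, a MAP kinase phosphatase gene (4.26 and 4.24 in B6), and Gclc, a glutathione synthesis gene (3.42 and 4.02 in B6), and neither had an F1 peak. The nearest MSM peak was 37 bp from the Gclc region and 7250 bp from that of Dusp1.

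The F1 livers carry 1 genome of each strain, and their lists were not used by the rule. A peak in F1 BM was present in 345 of the 509 regions (67.8%; Wilson 95% interval 63.6-71.7%, counting error only), against 58.4% of all distal regions. In F1 MB it was 136 (26.7%; 23.1-30.7%), against 30.1%. Both F1 libraries had a peak in 130 regions (25.5%, against 28.3%), F1 BM alone in 215 (42.2%, against 30.0%), F1 MB alone in 6 (1.18%, against 1.78%) and neither in 158 (31.0%, against 39.9%). Thus 351 of the regions, found in 1 parent only, were acetylated in at least 1 of the hybrid livers.

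With 1 library of each cross, a difference between the crosses cannot be told apart from a difference between libraries, and the F1 BM list was the longer (20173 against 13235 peaks). When every list was limited to the same covered length, 171 regions met the rule and the order turned, with 49.7% in F1 BM against 63.2% in F1 MB. With the same number of peaks in each list, the shares were 56.5% and 37.3%. Without B6 replicate 2 in the rule they were 35.5% and 8.35%, over 4754 regions. The number of markers of other liver cells with a start peak also went with list length, at 7 of 31 in F1 BM and 0 of 31 in F1 MB, and its part in the F1 shares was not tested.

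The share with an F1 peak differed between regions by how many parental libraries held one. It was 98.4% in F1 BM and 88.1% in F1 MB for the 2267 distal regions with a peak in all 4 parental libraries, and 89.1% and 45.1% for the 395 with both B6 peaks and 1 MSM peak. For the 4227 regions with a peak in B6 replicate 1 alone it was 31.5% and 6.10%. The 761 MSM-specific distal regions had 66.6% (63.2-69.9%) in F1 BM and 23.5% (20.6-26.7%) in F1 MB, with intervals that overlapped those of the B6-specific regions.

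**Figure D3:**
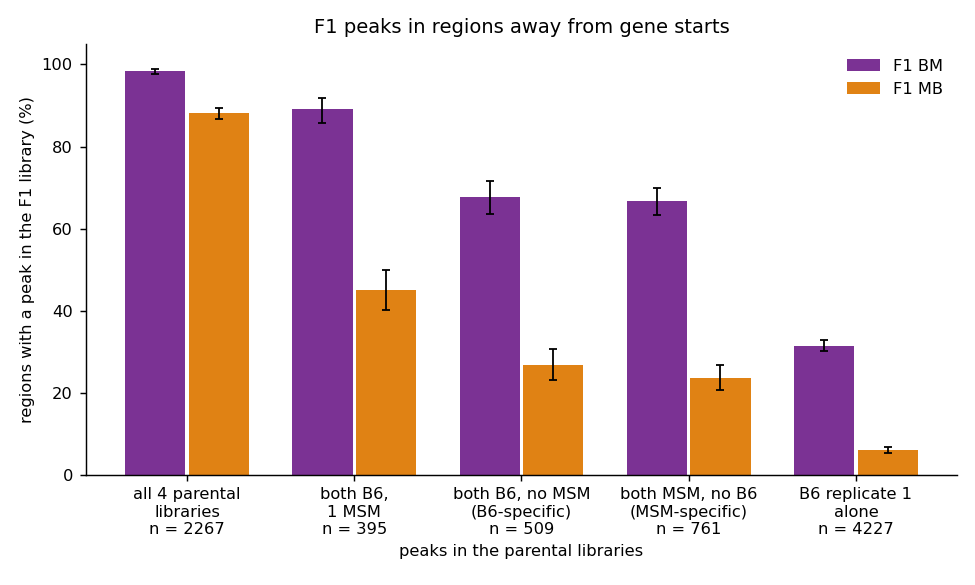
Share of distal regions (vertical, percent) with a peak in F1 BM (purple) or F1 MB (orange), by the parental libraries that held a peak (horizontal), with the number of regions under each pair; error bars are Wilson 95% intervals for counting error. The B6-specific pair (67.8% and 26.7%) lies close to the MSM-specific pair (66.6% and 23.5%) and below regions shared between the strains.

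The same shares can be set side by side at a like fold in B6 replicate 2. From 2.24 to 3.62, the F1 BM share was 65.9% for B6-specific regions, 91.0% for those with both B6 peaks and 1 MSM peak and 97.5% for those in all 4 parental libraries. In F1 MB it was 20%, 44.1% and 79.2%. From 4.36 to 10.1, the F1 BM shares of these classes were 73.7%, 90.5% and 98.8%, and those of F1 MB were 39.2%, 49.5% and 93.4%. The classes were set by the parental peaks and the B6 fold was part of the rule, so these values are a description.

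Within the B6-specific regions, those with the higher B6 fold more often had an F1 peak. By the lower of the 2 B6 folds, the share in F1 BM was 83.3% (74.9-89.3%) in the highest quintile (4.67 to 10.04; 102 regions) and then 65.7%, 65.7%, 60.8% and 63.4% in the others. In F1 MB it was 49.0% (39.5-58.6%), then 24.5%, 23.5%, 19.6% and 16.8%. The highest quintile stood apart from the other 4, whose intervals overlapped each other in both libraries.

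**Figure D4:**
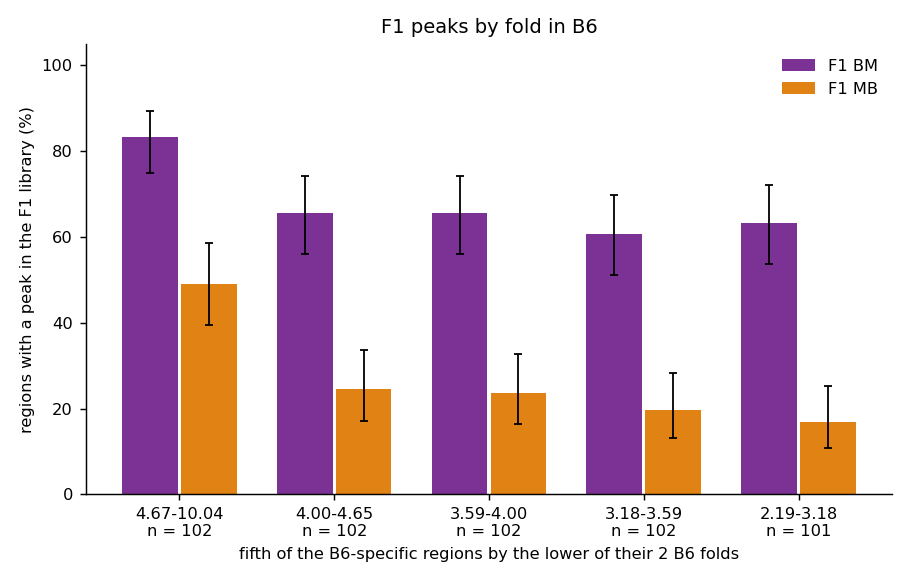
Share of the B6-specific distal regions (vertical, percent) with a peak in F1 BM (purple) or F1 MB (orange), in 5 groups by the lower of their 2 B6 folds (horizontal, strongest on the left); error bars are Wilson 95% intervals for counting error. The strongest group reaches 83.3% and 49.0%, and the other 4 lie between 60.8% and 65.7% in F1 BM and between 16.8% and 24.5% in F1 MB.

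Near to and far from an MSM peak, the shares had overlapping intervals. Of the 164 regions within 1000 bp of an MSM peak, 70.1% (62.7-76.6%) had a peak in F1 BM and 26.8% (20.6-34.1%) in F1 MB. Of the 345 farther away, 66.7% (61.5-71.4%) and 26.7% (22.3-31.6%) did. Of the 210 more than 10 kb away, 63.8% and 27.1% did.

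Where an F1 peak was present, its fold was in the median lower than in B6. The median ratio of the F1 fold to the mean B6 fold was 0.740 in F1 BM (IQR 0.584-0.905; 345 regions) and 0.776 in F1 MB (IQR 0.624-0.924; 136 regions). Regions with a peak in all 4 parental libraries had 0.768 and 0.810; a lower fold in the F1 lists was thus also found where both strains were acetylated. The lists give no allelic counts, and the share of the signal from each genome was not analysed here.

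In sequence, the B6-specific regions resembled other distal regions in base composition and differed in repeated sequence. The median GC content of the 300 bp windows at the highest parental summit was 48.0%, against 48.7% over all distal regions and 51.3% over those of all 4 parental libraries. The median number of CpG sites in a window was 4, as over all distal regions, against 6 for those of all 4 libraries. Regions with a peak in neither F1 library had a median GC content of 51.0%, against 47.3% for those with one.

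Bases soft-masked as repeats in the RefSeq sequence made up a median of 14.7% of a B6-specific region, against 10.98% over all distal regions. More than 50% of the bases were masked in 52 regions (10.2%; 7.88-13.2%), against 5.69% of all distal regions and 1.72% of those in all 4 parental libraries. The MSM-specific regions, at 69 of 761 (9.07%; 7.23-11.3%), had an interval that overlapped that of the B6-specific ones. A raised share of repeats was thus seen in the regions of both strains.

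Repeats matter for mapping, because a read from a sequence with several copies cannot be placed with certainty. Of the 50-base words in the summit window, the length of the reads, all were unique in the GRCm38 chromosomes for 415 regions (81.5%; 77.9-84.7%), against 90.2% of all distal regions. In 38 regions (7.47%; 5.49-10.1%) fewer than 50% of the words were unique, against 3.40% of all distal regions and 7.23% (5.59-9.29%) of MSM-specific regions. Among the 25 highest-ranked regions, 17 held only unique words and 6 had fewer than 50% unique. In the windows of the first BC107364 region and of Pls3, 0% of the words were unique, with a median of 2 and 4 copies, so the place of these peaks is uncertain. The same holds for Zfp825 and Cep85, both with 19.9% unique words, for Hnrnpa3 with 31.1% and for the second BC107364 region with 17.9%. Outside the 25, it also holds for the described regions of Apob (30.7%), Acnat1 (30.3%), Ykt6 (30.3%) and Fzd8 (37.5%), for the other regions of Pls3 (19.9% and 0%), for 1 of the 3 at Gstp3 (9.96%) and for a second one at Zfp825 (37.5%). The windows of Tsga10ip (second by rank), Camk2d, Scarb1, Bcor and Nlrp12 held only unique words. Without the regions that held any repeated word, the F1 shares were 68.2% in F1 BM and 27.2% in F1 MB.

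**Figure D5:**
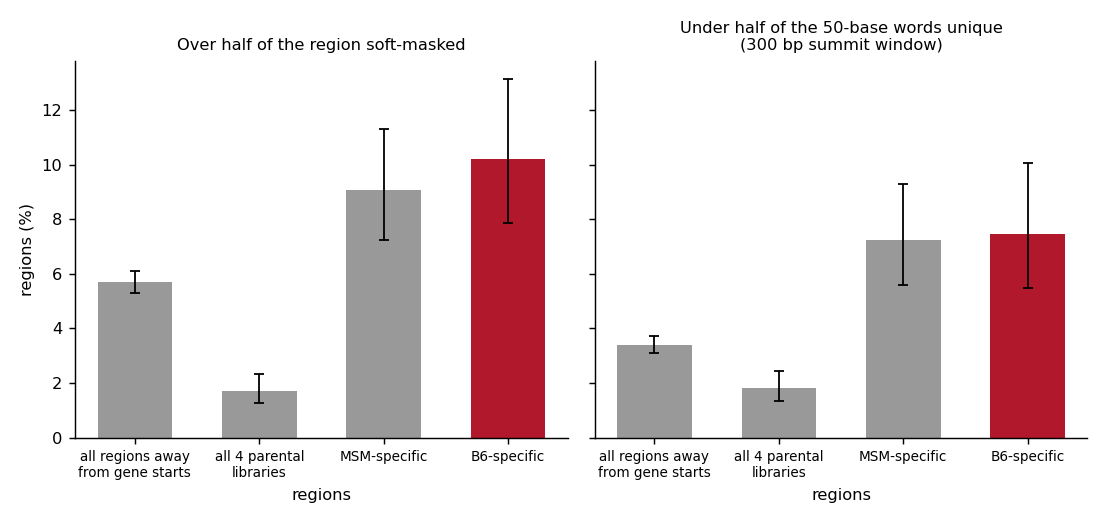
Share of distal regions (vertical, percent) with more than 50% of bases soft-masked (left) and with fewer than 50% of the 50-base words of the 300 bp summit window unique in the genome (right), for all distal regions, those in all 4 parental libraries, MSM-specific and B6-specific regions; error bars are Wilson 95% intervals for counting error. B6-specific (10.2% and 7.47%) and MSM-specific regions (9.07% and 7.23%) both lie above all distal regions (5.69% and 3.40%).

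The letters of 14 motifs were searched on both strands of these windows, where N is any base. The shares of B6-specific and of all distal windows were 10.8% and 11.2% for C/EBP (TTGCNNAA), 4.32% and 4.20% for FOXA (TGTTTAC), 0% and 0.422% for HNF4 (CAAAGTCCA), 1.57% and 0.783% for HNF1 (GTTAATNAT) and 1.18% and 0.599% for HNF6 (TATTGATT). They were 6.88% and 8.28% for AP-1 (TGANTCA), 8.64% and 8.86% for STAT (TTCNNNGAA), 9.43% and 8.98% for the glucocorticoid receptor (ACANNNTGT), 3.73% and 3.99% for the E-box (CACGTG) and 1.18% and 1.08% for the PAR bZIP D-box (TTATGTAA). They were 28.3% and 28.1% for the CCAAT box (CCAAT), 0.589% and 0.392% for a direct repeat bound by nuclear receptors (GGTCAAAGG), 0.982% and 1.07% for the CTCF core (CNAGGGGGC) and 0.982% and 0.545% for ETS (CCGGAAGT). For HNF4, 0 of 509 windows held the letters, with an upper Wilson limit of 0.749%, above the share of all distal regions. The Wilson intervals of the 2 shares overlapped for all 14 motifs, and a match is a stretch of letters and not a bound site.

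In the 6 printed sequences, a C/EBP match stood in those of Tsga10ip (bases 231-238), Camk2d (192-199) and Bcor (41-48). The Scarb1 sequence held 2 glucocorticoid receptor matches (154-162 and 175-183), an E-box (264-269) and a CCAAT box on each strand. The Nlrp12 sequence held an AP-1 match (292-298) and 2 overlapping CCAAT boxes (226-233). The BC107364 sequence held none of the 14, and the Bcor sequence was the richest in CpG, with 20 sites against 0 in Nlrp12.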

How the data were processed

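H3K9ac ChIP-seq libraries of adult liver (50-base read pairs) were analysed from the 6 peak lists as deposited. According to the methods of the study, the authors trimmed reads with Trim Galore and mapped them to mm10 with Bowtie 2; the submitters' processing notes name Trim Galore, HISAT2, SAMtools, MACS2 and the builds mm10 and GRCm38, so the aligner is given in 2 ways. The threshold, the use of inputs and the treatment of multiply mapped reads are not given in the sources used here. The deposited columns are a score, a fold enrichment (ratio) at the summit, -log10 p-values and -log10 q-values, and a summit offset. The methods of the study give the yield of read pairs as a range over the ChIP libraries. The lists give no read counts, so the number of reads behind a peak is unknown. The reference sequence is that of B6, and MSM reads were mapped to it.

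Peaks of the 4 parental lists sharing at least 1 bp were merged. A region was present in a library when a peak of it overlapped by 1 bp or more. The fold of a region in a library was that of its strongest overlapping peak, so neighbouring regions can share the value of the same F1 peak. Gene starts were those of 21911 protein-coding symbols of GENCODE M21 (1 per symbol). Analyses used Python 3.11.15 with numpy 2.4.6, scipy 1.17.1 and matplotlib 3.10.9. Intervals of shares are Wilson 95% intervals and cover counting error only. No p-value was computed, because the rule used every parental library, each cross had 1 F1 library, and regions are not replicates. The code was tested on simulated lists with planted regions. Named were the 25 regions with the highest lower B6 fold, genes nearest to 3 or more regions, regions nearest to listed genes, and the 5 widest and 5 farthest. Members, lists and motifs were chosen with earlier results of these data known. The input libraries were not analysed here. Some genes that the rule names are not reported here.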

Additional observations from a re-analysis of the deposited data

How the results depend on the processing

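The count of B6-specific distal regions and the F1 shares were recomputed under 14 alternatives, 13 of them planned and 1, unique words only, chosen after seeing the data. The count of 509 stayed within 1.5 times under 11 of the 14. It was 171 when all lists were limited to the same covered length, 334 when peaks up to 500 bp apart were joined first, and 696 to 4754 when 1 library was left out, the highest without B6 replicate 2. The F1 BM share of 67.8% stayed within its interval under 9 alternatives, and was 56.5% with the same number of peaks in each list, 49.7% with the same covered length and 35.5% to 74.0% with 1 library left out. The F1 MB share of 26.7% likewise stayed within its interval under 9, and was 37.3% with the same number of peaks, 63.2% with the same covered length and 8.35% to 31.6% with 1 library left out. Both lowest leave-one-out shares were without B6 replicate 2, which brings in 4754 regions, most with a peak in B6 replicate 1 alone. F1 BM was above F1 MB under 14 of 15 settings, the reported one included, and below it with the same covered length; the cause was not tested. No paired analysis was possible because no result comes from a test, and B6 and MSM mice share only a replicate number. Lists of unequal length and 2 mice of each strain limit what absence of a peak in MSM or an F1 liver shows.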
